A study of Mus musculus with 18 samples.

Results

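Ccl2, Ccl7, Ccl11, Ccl12 and Ccl8 are neighboring genes for CC chemokines, small secreted proteins that attract leukocytes, and they lie in this order on mouse chromosome 11. The 5 rows of the count table that carry these symbols were followed here, out of 55486 genes in the table, across 4 groups of cultured mammary fibroblasts and across the conditioned media of 6 tumor lines. Of the 5 genes, 4 passed a filter on low counts that left 14273 genes for testing, and Ccl12 did not. Their names and positions chose the genes, at a time when earlier results of these data were known.

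RNA was sequenced from normal fibroblasts (NFs) of the mammary gland of female FVB/n mice, sorted by flow cytometry as negative for EpCAM, CD49f, CD45 and CD31 and then split by CD26, the surface peptidase encoded by Dpp4. CD26- NFs in control conditioned medium (n = 3, replicates 1 to 3), CD26- NFs in tumor conditioned medium (CM; n = 6, replicates 4 to 9), CD26+ NFs in control conditioned medium (n = 3, replicates 10 to 12) and CD26+ NFs in tumor CM (n = 6, replicates 13 to 18) were each cultured for 7 days. Tumor CM came from the tumor lines 13-MCB-17, 10-SJK-221, 18-MCB-12, 13-MCB-44, 13-MCB-90 and 13-MCB-138, derived from mice that model invasive lobular carcinoma of the breast, in which Cre from a milk protein promoter acts in mammary epithelium and deletes, among others, Cdh1 (E-cadherin). The fibroblasts carried no Cre, came from glands pooled over several mice per sort and were passaged before use, and CM of any line was given to 1 CD26- and 1 CD26+ culture. Nothing in the labels says that replicates came from separate mice, so p-values measure only the spread between these cultures.

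CC chemokines act through G protein-coupled receptors on leukocytes. Ccl2 is the main ligand of Ccr2 and draws monocytes out of the blood, Ccl7 binds Ccr1, Ccr2 and Ccr3, Ccl8 is a further monocyte chemoattractant protein, Ccl12 is a mouse Ccr2 ligand, and Ccl11 (eotaxin) attracts eosinophils through Ccr3. In fibroblasts these genes are known to be induced by inflammatory cytokines through NF-kB, and their mRNAs are short-lived.

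Values are CPM, the counts per 1000000 counts of the TMM-scaled library. Total counts per library ran from 9725723 to 14585349. All 7 fibroblast markers passed the filter, and their summed level also moved with cell type and medium, from 14888 to 16630 CPM in CD26- controls and 7986 to 19751 CPM in CD26- CM libraries to 60176 to 76978 CPM in CD26+ controls and 27223 to 50292 CPM in CD26+ CM libraries. The single genes did not all follow this sum. In CD26+ NFs, Col1a1, Col1a2 and Col3a1 lay lower with CM than in controls, and Thy1 overlapped. Dcn lay higher there (366 to 436 CPM in controls, 1378 to 4408 CPM with CM), as did Pdgfra and Pdgfrb. Of 11 leukocyte markers, 7 had at most 3 counts in every library, among them Ptprc (CD45), Adgre1 and Itgam, and the summed level of the list ran from 18.1 to 30.3 CPM over all 18 libraries, most of it Csf1r at 142 to 338 counts. Epithelial markers stood apart between the cell types as well, although the sort had gated EpCAM- cells. The 6 epithelial genes, all past the filter, summed to 3639 to 3975 CPM in CD26- control libraries and 2291 to 3710 CPM in CD26- CM libraries, against 602 to 1071 and 549 to 1323 CPM in CD26+ libraries. Endothelial markers summed to at most 7.99 CPM in any library. The part of these lists in the results was not tested, and in bulk RNA fewer cells of a type and less RNA per cell cannot be told apart. Dpp4 had at most 1 count in each CD26+ control library, so in control medium the label CD26+ names the sort and not the transcript at harvest. With CM its mean was 3.54 CPM in CD26+ and 0.371 CPM in CD26- NFs, a difference of 3.23 on the log2 scale (edgeR FDR 5.02e-05), and the rise with CM in CD26+ NFs passed the test (edgeR FDR 0.000312).

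Ccl2 (ENSMUSG00000035385) lies at 82035571 to 82037453 of chromosome 11 (GRCm38, forward strand), Ccl7 (ENSMUSG00000035373) at 82045712 to 82047525, Ccl11 (ENSMUSG00000020676) at 82057823 to 82062955, Ccl12 (ENSMUSG00000035352) at 82101845 to 82103400 and Ccl8 (ENSMUSG00000009185) at 82115185 to 82116799, so that the cluster spans 81.2 kb. No other gene of the table starts between the first and the last of them. Gm17268, on the reverse strand from 82028224 to 82038562, spans Ccl2 but shares 0 exon bases with it and had 1 count over all libraries. Of the stretches of 65 bases, the length of a read, that can be cut from their transcripts in GENCODE M21, 0 were found in the transcripts of another gene. A read that matches exactly can therefore be placed on 1 of these genes.

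Ccl12 and Ccl8 are the closing pair of the cluster, separated by 11784 bases, of which the first was at or near 0 in all libraries and the second was detected in all. The 250 bases before the start of each, from RefSeq on GRCm38.p6, are shown, with matches to the searched motifs in capitals. RefSeq is built on the C57BL/6J strain, and FVB/n alleles may differ from it. Only these 2 of the 5 genes had an entry in the promoter set used here, so Ccl2, Ccl7 and Ccl11 could not be compared.
Ccl12, chr11:82101595-82101844, forward strand: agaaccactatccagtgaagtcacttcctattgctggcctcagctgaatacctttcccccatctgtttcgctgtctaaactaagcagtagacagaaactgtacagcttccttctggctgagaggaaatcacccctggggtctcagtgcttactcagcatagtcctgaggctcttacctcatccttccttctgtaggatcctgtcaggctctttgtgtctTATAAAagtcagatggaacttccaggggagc
Ccl8, chr11:82114935-82115184, forward strand: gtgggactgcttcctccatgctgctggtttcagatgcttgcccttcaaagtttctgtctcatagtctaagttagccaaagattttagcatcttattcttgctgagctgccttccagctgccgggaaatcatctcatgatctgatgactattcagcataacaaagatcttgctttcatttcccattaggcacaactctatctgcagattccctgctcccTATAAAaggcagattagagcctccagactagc

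Each window held 1 match to TATAAA, which begins 31 bases before the start of Ccl12 and 32 bases before the start of Ccl8. Among 32851 promoter windows of this length, 12.4% held this motif on either strand. Searched on both strands, neither window held the AP-1 letters TGANTCA (6.75% of all windows), the STAT letters TTCNNNGAA (7.02%) or the C/EBP letters TTGCNNAA (9.56%). Nor did either hold the NF-kB consensus in the form searched (7.25%), and a looser form may match where this one does not. A global alignment of both windows gave 270 columns, of which 55.6% were identical, and the longest runs found in both, of 8 bases, were GGAAATCA, TCAGCATA and TATAAAAG, the last of which holds the TATAAA match. Both genes thus held or lacked the same motifs among those searched in these windows.

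Tumor CM was compared with control medium in each cell type to ask which of these chemokines the fibroblasts express more when exposed to tumor-derived factors. All 4 tested members rose in both cell types (edgeR quasi-likelihood test, FDR under 0.05, adjusted over all tested genes), where 7.88% of the tested genes rose in CD26- NFs and 15.2% in CD26+ NFs. For each of the 4, every CM library lay above every control library of its cell type, a separation shown by 10.0% of tested genes in CD26- NFs and 13.7% in CD26+ NFs. With the log2 limit of 2 used by the study, only Ccl11 counted as higher in CD26- NFs (0.764% of tested genes did), and Ccl2, Ccl11 and Ccl8 in CD26+ NFs (1.60%). Over the tested members the median log2 fold change (log2FC) was 1.70 in CD26- NFs and 2.89 in CD26+ NFs, and over all tested genes 0.01 and -0.00.

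**Figure D1:**
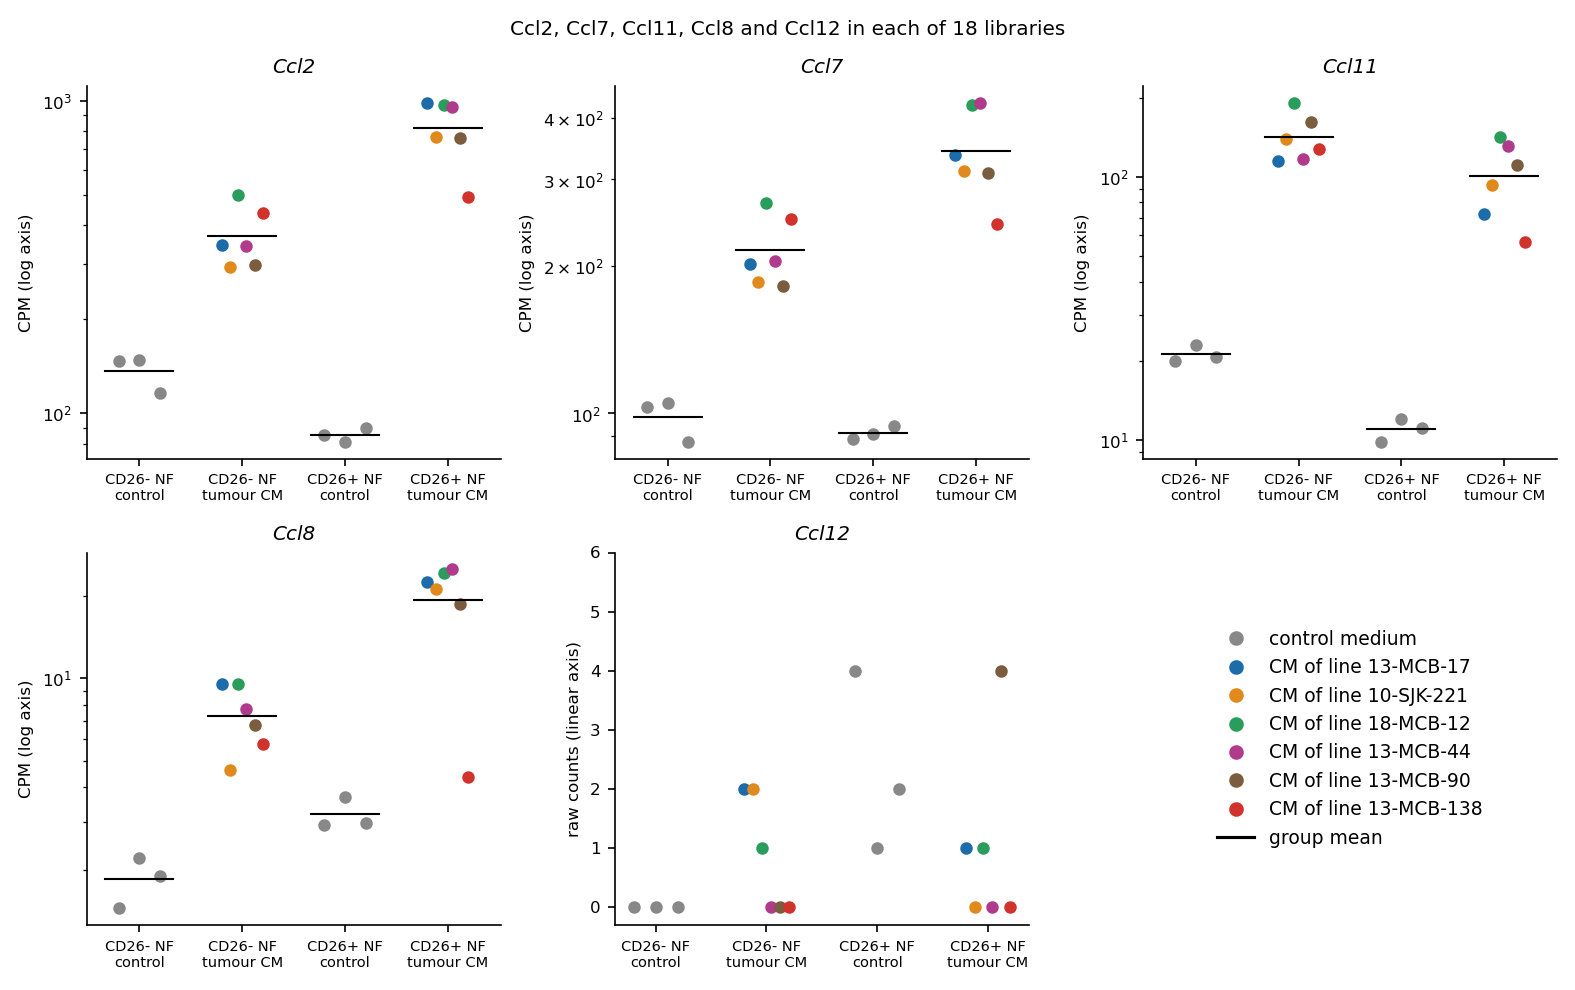
Level of each member in each of 18 libraries by group (CPM on a log axis for Ccl2, Ccl7, Ccl11 and Ccl8, raw counts on a linear axis for Ccl12). Each point is 1 library colored by the tumor line that gave the CM, and black lines are group means. All CM points of the 4 detected genes lie above the control points of the same cell type, Ccl12 stays at 0 to 4 counts, and the library of CD26+ NFs given CM of 13-MCB-138 is the lowest of its group for all 4.

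Ccl2, the monocyte chemoattractant, had 116, 147 and 148 CPM in the 3 CD26- control libraries and 81.3, 85.4 and 89.7 CPM in the 3 CD26+ control libraries. In tumor CM it ran from 294.5 to 501 CPM in CD26- NFs (median 344) and from 490.5 to 984 CPM in CD26+ NFs (median 859.8). The order of the groups was therefore CD26+ control, CD26- control, CD26- CM, CD26+ CM, and only the 2 CM groups overlapped, through 1 library on each side. Mean levels rose 2.70-fold in CD26- NFs (log2FC 1.43 ± 0.20, SE, edgeR FDR 0.000362) and 9.61-fold in CD26+ NFs (3.26 ± 0.23, edgeR FDR 8.70e-08). The gain in CD26+ NFs was the larger by 1.83 ± 0.28 on the log2 scale (edgeR FDR 0.00267).

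Ccl7, whose protein reaches both monocytes and eosinophils, began at nearly the same level in both cell types. The 3 CD26- control libraries had 87.6, 103 and 105 CPM and the 3 CD26+ control libraries 88.8, 90.7 and 94.1 CPM, with the second set inside the range of the first. Tumor CM brought it to between 182 and 268 CPM in CD26- NFs (median 203) and to between 244 and 429.7 CPM in CD26+ NFs (median 324). These are rises of 2.18-fold and 3.76-fold in the mean. The CM effects differed by 0.79 ± 0.22 (log2; edgeR FDR 0.0373), a call that 12 of 18 fits with 1 library removed did not keep (edgeR FDR up to 0.104).

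Ccl11, the eosinophil attractant, followed another order, with CD26- NFs above CD26+ NFs in either medium. It had 20.0, 20.7 and 23.1 CPM in CD26- control libraries and 9.87, 11.1 and 12.0 CPM in CD26+ control libraries, which did not overlap. With CM it lay between 115 and 191 CPM in CD26- NFs (median 133) and between 56.7 and 142 CPM in CD26+ NFs (median 102), which overlapped. Mean levels rose 6.67-fold in CD26- NFs, with log2FC 2.74 ± 0.26 (edgeR FDR 3.16e-05), and 9.17-fold in CD26+ NFs, with 3.19 ± 0.28 (edgeR FDR 6.15e-07). A difference between these CM effects was not shown (0.46 on the log2 scale, 95% interval -0.29 to 1.20, edgeR FDR 0.455).

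Ccl8 was the weakest of the detected members, with 15, 26 and 28 counts in CD26- control libraries and 36, 40 and 50 counts in CD26+ control libraries. In CPM these are 1.45, 1.90 and 2.22 against 2.91, 2.97 and 3.70, which did not overlap. In tumor CM it ran from 4.63 to 9.53 CPM in CD26- NFs (median 7.24) and from 4.38 to 25.0 CPM in CD26+ NFs (median 21.8). All but 1 of the CD26+ CM libraries lay above the whole CD26- CM group. Mean levels rose 3.94-fold in CD26- NFs (log2FC 1.96 ± 0.46, edgeR FDR 0.00908, or 0.0547 without replicate 3) and 6.04-fold in CD26+ NFs (2.59 ± 0.41, edgeR FDR 0.000165). The difference between the CM effects had a wide interval, from -0.71 to 1.97 on the log2 scale (edgeR FDR 0.586).

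Ccl12, the remaining Ccr2 ligand, was at or near 0 throughout, although it lies between Ccl11 and Ccl8. It had 18 counts over all 18 libraries together, 0 counts in 9 of them and at most 4 in any. The 3 CD26- control libraries had 0 counts each, and the 3 CD26+ control libraries 4, 1 and 2. In tumor CM the highest count was 2 in CD26- NFs and 4 in CD26+ NFs. A floor of 3 counts per library is 0.206 to 0.308 CPM of the total count and 16 of 18 libraries were at or under it, so no fold change is given and a change of a few counts was not detectable at this depth. In CD26+ NFs, where the controls had 7 counts in 3 libraries, the CM libraries had 6 counts in 6, with at most 4 in 1 library as in the controls. These limits cover counting error only.

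**Figure D2:**
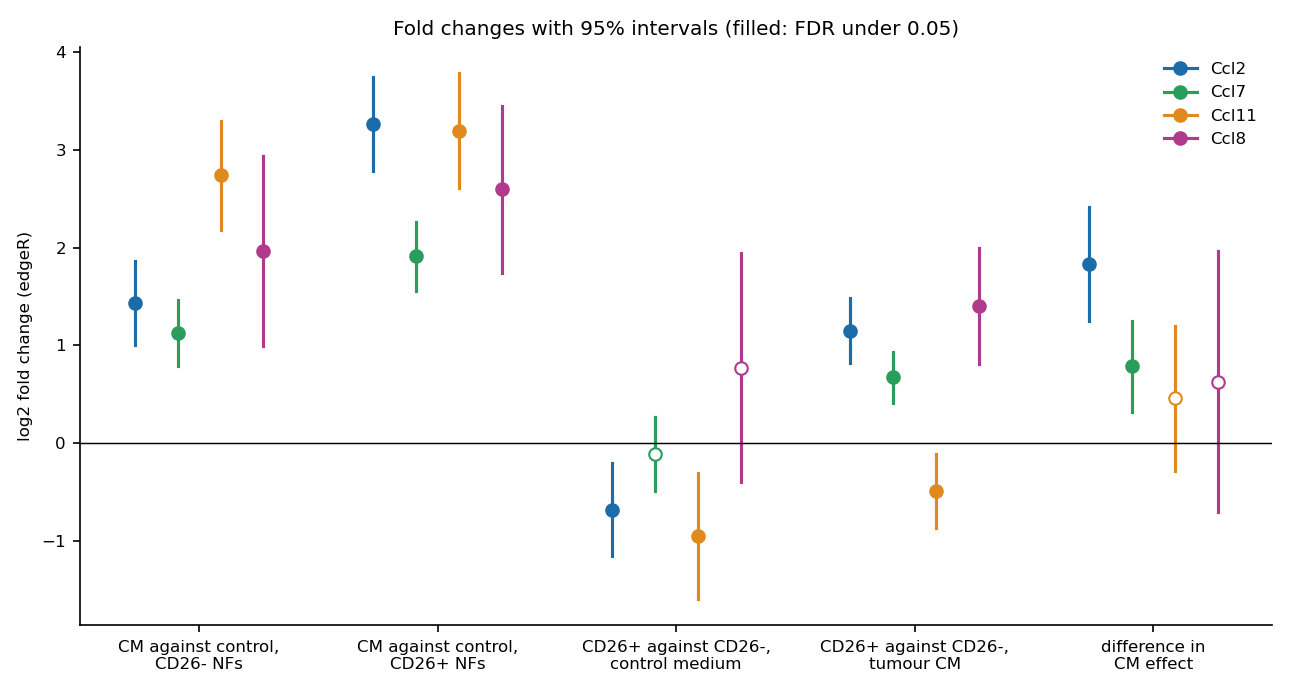
Log2 fold changes of Ccl2, Ccl7, Ccl11 and Ccl8 (edgeR, 4-group model) in 5 comparisons, with 95% intervals as vertical bars. Filled points have an FDR under 0.05. CM effects lie between 1.13 and 3.26, and Ccl11 is the member whose log2 fold change for CD26+ against CD26- NFs passes below 0 in both media.

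In control medium, CD26+ NFs were set against CD26- NFs to ask how the members differ without tumor factors. Ccl2 was lower in CD26+ NFs (log2FC -0.68 ± 0.23, edgeR FDR 0.0180), as was Ccl11 (-0.95 ± 0.30, edgeR FDR 0.0150). Thus 2 of 4 tested members were lower, where 25.4% of all tested genes were, and the same 2 showed groups that did not overlap, as 32.0% of tested genes did in this direction. The Ccl2 call was lost without replicate 1, 2 or 11, with an FDR of up to 0.0644, and the Ccl11 call without replicate 10, with an FDR of 0.0514. Ccl7 did not pass (-0.11, 95% interval -0.49 to 0.27, edgeR FDR 0.637). For Ccl8 the 3 CD26+ libraries were above the 3 CD26- libraries, as for 32.6% of tested genes, but a log2FC of 0.77 ± 0.56 did not pass (edgeR FDR 0.264). Without replicate 18 its FDR was 0.0359, and in a fit of only the control groups it was 0.00970.

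In tumor CM the cell types differed for all 4 tested members, but not in one direction. Ccl2 was 2.22-fold higher in CD26+ NFs (log2FC 1.15 ± 0.16, edgeR FDR 6.45e-06), Ccl7 1.60-fold higher (0.67 ± 0.12, edgeR FDR 0.000166) and Ccl8 2.64-fold higher (1.40 ± 0.28, edgeR FDR 0.000366). Higher levels in CD26+ NFs were called for 29.3% of tested genes and lower levels for 29.3%, so passing this test was common. Ccl11 was lower in CD26+ NFs, at -0.49 ± 0.18 (edgeR FDR 0.0263). That call was lost without replicate 6, 8 or 13, with an FDR of up to 0.0746, and in a fit of only the CM groups, where the FDR was 0.0557. Groups that did not overlap, with CD26+ NFs higher, were found for 15.9% of tested genes and for 0 of the 4 members. For Ccl2, Ccl7 and Ccl8, 5 of 6 CD26+ libraries lay above all CD26- libraries, and the one given CM of 13-MCB-138 lay among the CD26- libraries or below them. The difference in CM effect was called for Ccl2 and Ccl7, 2 of 4 members, where 4.53% of tested genes had a positive difference past the FDR.

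Each CM line was given to both cell types, so members can be compared line by line. With CM of 13-MCB-17, 10-SJK-221, 18-MCB-12, 13-MCB-44 and 13-MCB-90, Ccl2 was 1.94-fold to 2.85-fold higher in CD26+ than in CD26- NFs, Ccl7 at least 1.59-fold and Ccl8 2.36-fold to 4.57-fold. Under CM of 13-MCB-138 the ratios were 1.12 for Ccl2, 0.980 for Ccl7 and 0.762 for Ccl8. Each of these 3 ratios is the lowest among the 6 lines. For Ccl11 the CD26+ library was lower with CM of 5 lines, by ratios of 0.446 to 0.743, and higher with that of 13-MCB-44 (1.12).

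The low ratios with CM of 13-MCB-138 went with low levels in the CD26+ culture and, for Ccl2 and Ccl7, with high levels in the CD26- culture. In CD26- NFs this CM had rank 2 of 6 for Ccl2 (437 CPM) and Ccl7 (248.7 CPM), rank 4 for Ccl11 (127 CPM) and rank 5 for Ccl8 (5.75 CPM). In CD26+ NFs the library was the lowest of 6 for each of the 4 genes. Relative to the mean of the CD26+ controls its levels were 5.74-fold for Ccl2, 2.67-fold for Ccl7, 5.15-fold for Ccl11 and 1.37-fold for Ccl8, against ranges over the other 5 lines of 8.91-fold to 11.5-fold, 3.39-fold to 4.71-fold, 6.57-fold to 12.9-fold and 5.83-fold to 7.81-fold. Ccl8 had 49 counts and 4.38 CPM in this library, against 210 to 315 counts in the other 5 and 3.70 CPM in the highest control library. The library held 11698481 counts and had the highest fibroblast marker sum of its group (50292 CPM), with rank 4 of 6 for the epithelial (688 CPM) and the leukocyte list (25.0 CPM). Their part in its low chemokine values was not tested. Without both libraries given this CM, the CM effects in CD26+ NFs were 3.38 for Ccl2, 1.99 for Ccl7, 3.31 for Ccl11 and 2.80 for Ccl8 (log2), and the differences in CM effect were 1.99, 0.91, 0.55 and 0.78.

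CM of 18-MCB-12 stood at the upper end in both cell types. It gave the highest Ccl2, Ccl7 and Ccl11 level among CD26- libraries (501, 268 and 191 CPM) and had rank 1 or 2 for all 4 genes among CD26+ libraries. Ccl11 with this CM, at 142 CPM in CD26+ NFs, was also the highest of that group. With CM of 10-SJK-221, Ccl2 (294.5 CPM) and Ccl8 (4.63 CPM) were the lowest of the CD26- group. A test of all 6 lines over the 12 CM libraries, with cell type as a further term, called 6.56% of 13344 genes and 0 of the 4 members (edgeR quasi-likelihood test). Ccl11 passed at an unadjusted p of 0.0238 (FDR 0.148), and the FDR was 0.247 for Ccl8, 0.403 for Ccl7 and 0.587 for Ccl2. DESeq2 called 1 member, Ccl11, and 10.1% of genes, and without the filter on low counts edgeR called all 4 members and 8.33% of genes. Without replicate 9 all 4 members passed, as did 15.3% of genes, and without replicate 18 Ccl2 and Ccl7 passed, as did 10.6% of genes. Both libraries had been given CM of 13-MCB-138, and leaving out either leaves that line with 1 library, so that the other lines give the spread. Without replicate 7, Ccl11 passed with an edgeR FDR of 0.0482, as did 3.32% of genes.

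**Figure D3:**
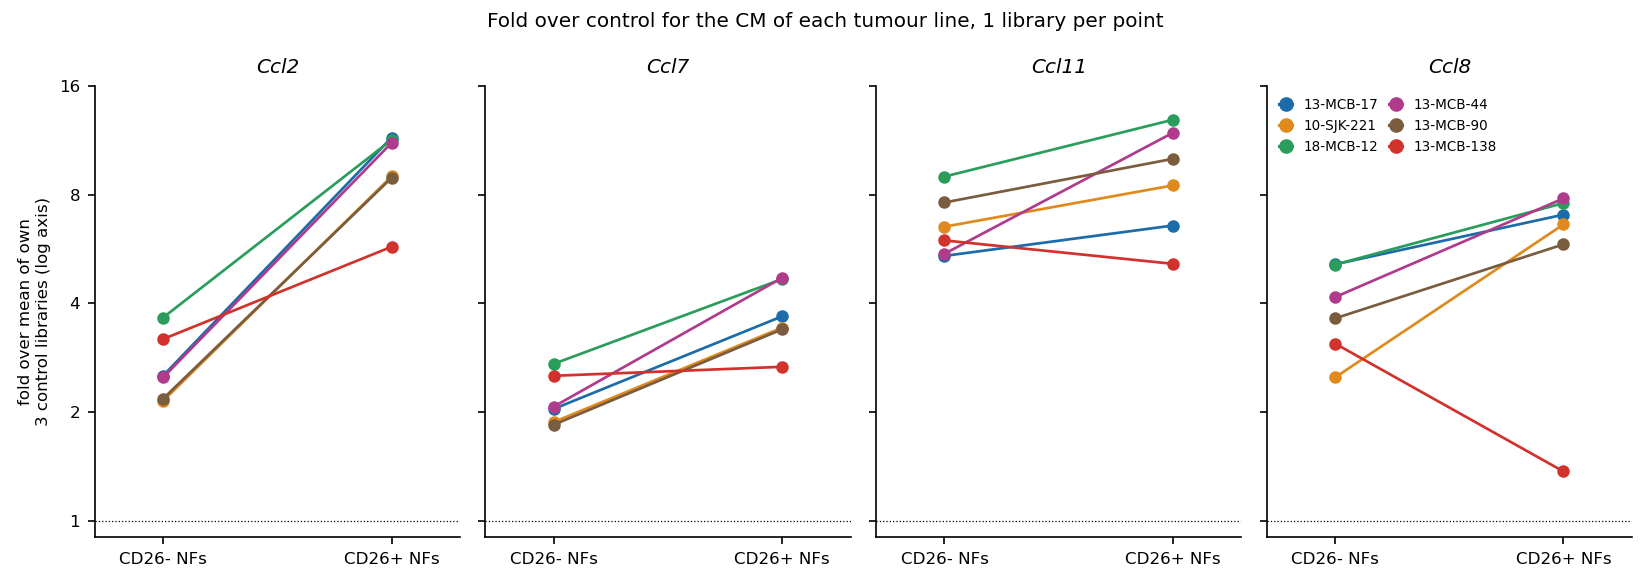
Level of each member with the CM of each of 6 tumor lines, as the fold over the mean of the 3 control libraries of the same cell type (log axis), with lines joining the CD26- and the CD26+ library of a CM. Ccl2 and Ccl7 climb from CD26- to CD26+ NFs with all 6 lines, least with 13-MCB-138 for Ccl7 (2.52-fold to 2.67-fold), and Ccl8 climbs with 5 lines and goes from 3.10-fold to 1.37-fold with 13-MCB-138.

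Levels of different members were compared per kilobase of merged exons (CPM per kb), as the genes differ in length. In CD26- control libraries Ccl7 (123 ± 11.9, SD, n = 3) and Ccl2 (120 ± 15.7) did not differ beyond their spread, followed by Ccl11 (19.7 ± 1.47) and Ccl8 (3.63 ± 0.755). In CD26+ control libraries Ccl7 (114 ± 3.35) was above Ccl2 (75.1 ± 3.71), and in CD26+ CM libraries the order was turned, with Ccl2 at 721 ± 167 and Ccl7 at 428 ± 90.8 (SD, n = 6). The ratio of Ccl2 to Ccl7 within a library was 0.630 to 0.677 in CD26+ controls and 1.42 to 2.06 with CM, and 0.935 to 1.00 and 1.12 to 1.31 in CD26- NFs. In each cell type the ranges of the 2 media were apart.

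Ccl11 took a larger part of the chemokine transcripts in CD26- NFs. Of the summed CPM per kb of the 5 genes it made up 7.41% ± 0.758 (SD, n = 3) in CD26- controls and 17.9% ± 3.29 (SD, n = 6) with CM. In CD26+ NFs its share was 4.94% ± 0.472 (n = 3) and 7.23% ± 1.40 (n = 6), and the highest CD26+ CM library (8.56%) was below the lowest CD26- CM library (14.3%). Ccl2 made up 43.7% ± 2.48 in CD26- NFs and 56.2% ± 2.98 in CD26+ NFs with CM. Ccl7 made up 36.4% ± 1.39 and 33.7% ± 2.74. With CM, Ccl2 thus had the largest mean share in both cell types, more so in CD26+ NFs, and the Ccl11 share was larger in CD26- NFs. Together the 5 genes reached 259 ± 28.0 CPM in CD26- controls, 734 ± 134 CPM in CD26- CM, 191 ± 6.07 CPM in CD26+ controls and 1284 ± 287 CPM in CD26+ CM libraries.

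To see whether the rise was shared by nearby genes, all genes within 1000000 bases of the cluster were listed. There were 42 besides the members, of which 12 passed the filter, all of them beyond Ccl8 and the nearest, Tmem132e, 272 kb away. With CM, 4 of the 12 rose in CD26- NFs, where 7.88% of all tested genes did, and 3 in CD26+ NFs, where 15.2% did, and 0 fell in either by edgeR at the FDR (0 in CD26- and 2 in CD26+ NFs at an unadjusted p under 0.05). The 4 were Rffl, Nle1, Slfn10-ps and Slfn2, and in CD26+ NFs all of these but Nle1 rose. Slfn2, a schlafen gene 1029.5 kb from Ccl2, rose by 1.35 in CD26- NFs (edgeR FDR 0.000760) and 1.83 in CD26+ NFs (edgeR FDR 1.51e-05) on the log2 scale, and Rffl, an E3 ubiquitin ligase gene that overlaps Lig3 in part, by 0.57 and 1.26. Schlafen genes are close copies of one another, so reads may be split among them. The median over the 12 neighbors was 0.31 in both cell types. Each of the 4 tested members had a larger log2 fold change than every one of these 12 genes in CD26+ NFs, and in CD26- NFs all but Ccl7 did, which lay below Slfn2.

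**Figure D4:**
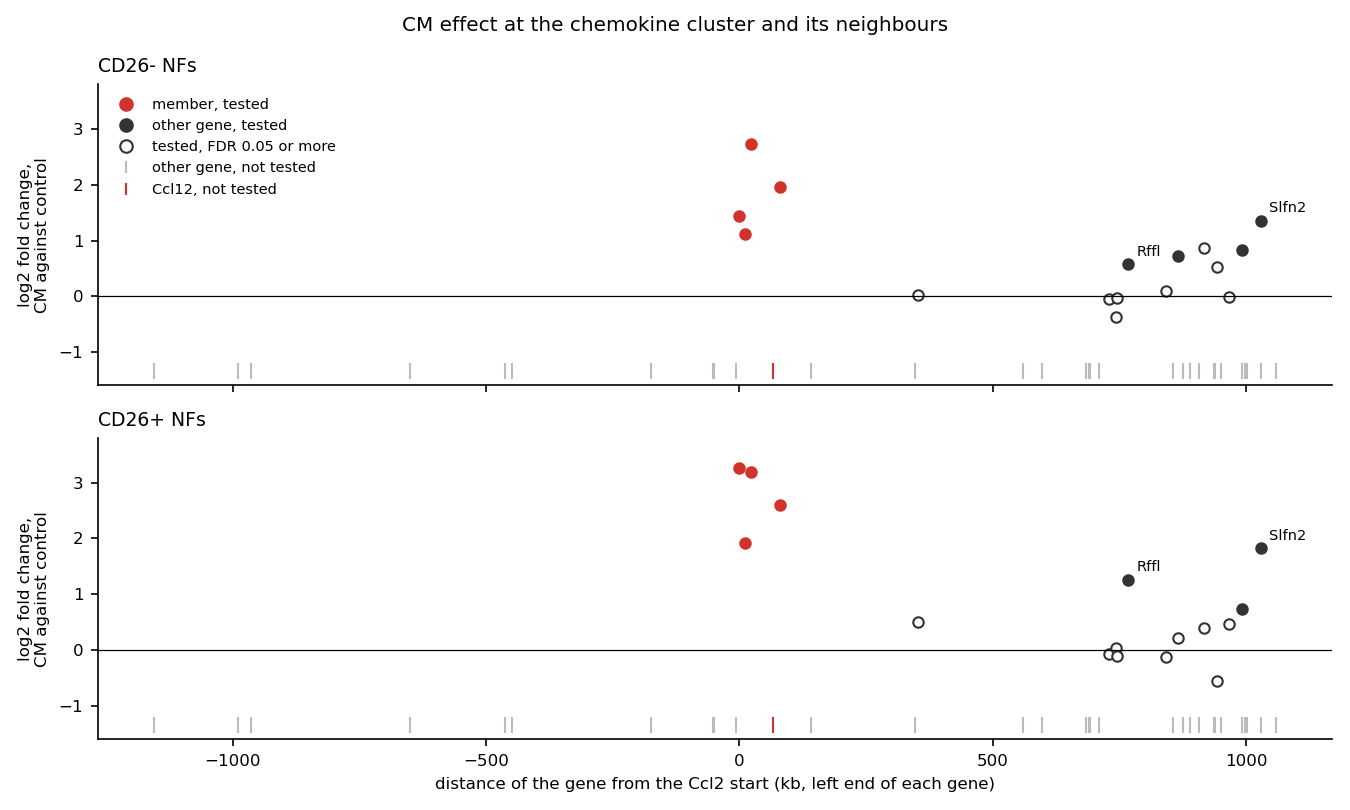
CM effect (log2 fold change, CM against control) of the members in red and of other genes within 1000000 bases in black, against the distance from the start of Ccl2 in kb, for CD26- NFs above and CD26+ NFs below. Open points did not pass the FDR and ticks mark genes that were not tested. Members stand at 1.13 to 3.26, and Slfn2 at 1.35 and 1.83 is the highest of the other genes.

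Among the other CC chemokine ligands no rise was called, a count near the share of all tested genes that rose (7.88% in CD26- and 15.2% in CD26+ NFs). Of 16 listed, 7 passed the filter, and 0 of them rose in either cell type, with a median log2FC of -0.35 (range -1.53 to 0.84) in CD26- and 0.02 (range -1.36 to 1.86) in CD26+ NFs. At an unadjusted p under 0.05, 2 of the 7 passed in each cell type (edgeR). In CD26- NFs these were Ccl5 and Ccl17, both lower with CM. In CD26+ NFs Ccl17 was lower (log2FC -1.36) and Ccl27a higher (0.90). Ccl17, a ligand of Ccr4, fell from 2.72 to 0.948 CPM in CD26- NFs, with log2FC -1.53 ± 0.37 (edgeR FDR 0.0101). Ccl9, the most abundant of them in CD26+ NFs, had 43.8 CPM there in control medium and 34.5 CPM with CM, and in CD26- NFs 6.15 and 3.93 CPM. Its CM effect passed in neither cell type (edgeR FDR 0.386 in CD26+ and 0.263 in CD26- NFs). The 9 that did not pass the filter had at most 11 counts in any library.

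Of 7 receptor genes for these ligands, 5 did not pass the filter. Ccr2, the receptor of Ccl2, had 0 counts in every library, and Ccr3, that of Ccl11, at most 3. Ccr1, a receptor of Ccl7, had 0.740 ± 0.0548 CPM in CD26- controls and 6.08 ± 3.44 CPM with CM, a rise with log2FC 3.04 ± 0.70 (edgeR FDR 0.00813). It rose in CD26+ NFs as well, from 0.398 ± 0.277 to 2.51 ± 1.87 CPM (2.62 ± 0.83, edgeR FDR 0.0250). The cells thus held transcripts of ligands and, of the main receptors of Ccl2 and Ccl11, none or next to none.

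Genes of the NF-kB pathway, which is known to act on Ccl2 and Ccl7, rose mainly in CD26+ NFs. Of 10 listed and tested, 1 rose in CD26- NFs, near the 7.88% of all tested genes, and 7 in CD26+ NFs, where 15.2% did, 0 fell in either (edgeR, with 4 and 8 of 10 at an unadjusted p under 0.05, all of them higher), and for 7 the difference in CM effect was positive past the FDR, as for 4.53% of all tested genes. Nfkb1, the p105/p50 subunit, rose from 118 ± 2.58 to 245 ± 24.3 CPM in CD26+ NFs and from 135 ± 3.25 to 154 ± 5.17 CPM in CD26- NFs, where its edgeR FDR was 0.0494. Nfkbia, the inhibitor IkB-alpha and itself a target of the pathway, rose with log2FC 1.74 in CD26+ NFs (edgeR FDR 1.50e-05), from 21.1 ± 1.37 CPM to 70.3 ± 20.1 CPM. CD26- NFs had 39.5 ± 4.36 and 53.4 ± 3.33 CPM (0.44, edgeR FDR 0.143). Relb and Nfkb2, of the alternative arm, had log2FC 1.17 and 0.68 in CD26+ NFs. In control medium 9 of the 10 were lower in CD26+ than in CD26- NFs, where 25.4% of all tested genes were. In tumor CM 4 were higher in CD26+ NFs and 3 lower (Rela, Nfkbib and Tnfaip3), with a median log2FC of 0.02, and both counts are near shares over all tested genes, 29.3% higher and 29.3% lower.

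**Figure D5:**
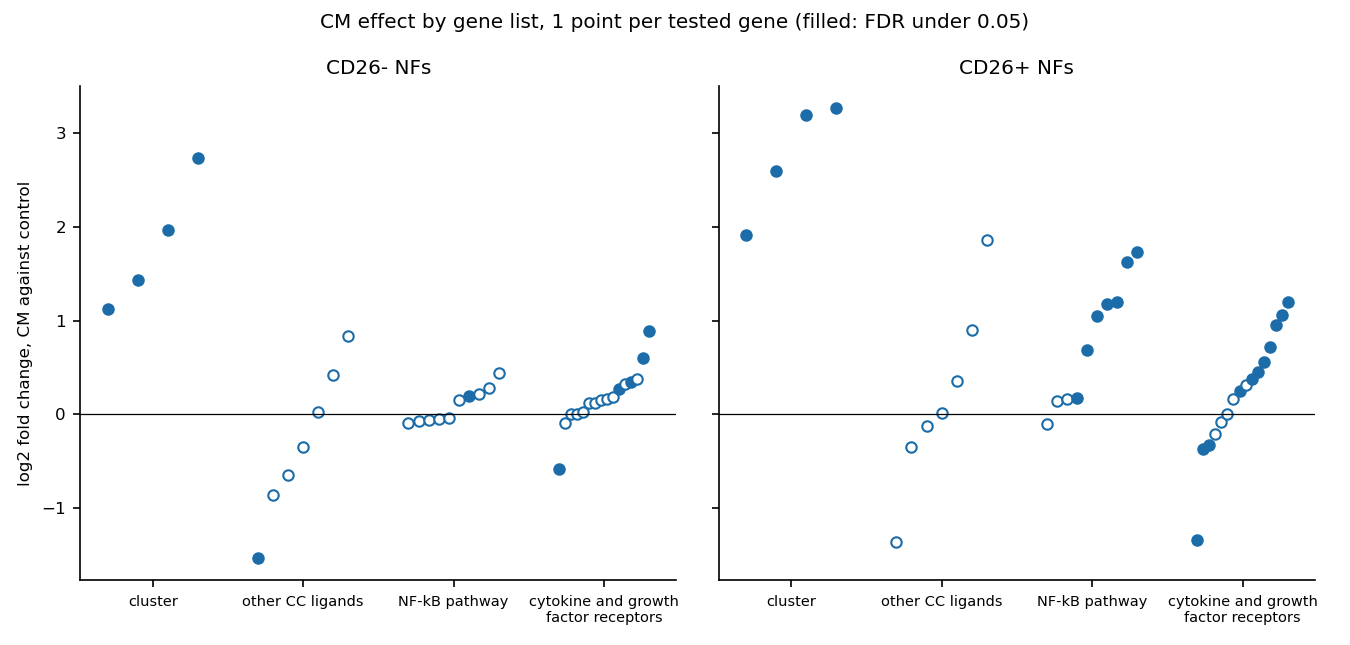
CM effect (log2 fold change, CM against control) of each tested gene by list, in CD26- NFs on the left and CD26+ NFs on the right. Filled points have an FDR under 0.05. All 4 tested cluster genes are filled in both panels, and NF-kB genes are filled for 1 of 10 in CD26- and 7 of 10 in CD26+ NFs.

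Receptors through which cytokines and growth factors could reach these genes changed in both directions. All 16 listed were tested. In CD26- NFs 4 were higher and 1 lower with CM, against 8 higher and 3 lower in CD26+ NFs. Over all tested genes, 7.88% were higher and 7.28% lower with CM in CD26- NFs, and 15.2% higher and 13.4% lower in CD26+ NFs. Ifngr2, a chain of the interferon-gamma receptor, rose by 0.27 and 0.95 (log2), and Ifnar2, a chain of the type I interferon receptor, by 0.60 and 0.72. Il17ra, the interleukin-17 receptor, fell by 0.59 and 1.34. Il6ra rose by 1.20 in CD26+ NFs (edgeR FDR 7.04e-06), and in CD26- NFs its log2FC was 0.38 (edgeR FDR 0.0619).

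Of 9 other transcription factors, 2 rose and 2 fell in each cell type, against 7.88% and 7.28% of all tested genes in CD26- NFs and 15.2% and 13.4% in CD26+ NFs. Cebpd, an acute-phase regulator, rose from 4.57 ± 1.16 to 12.8 ± 1.96 CPM in CD26- NFs, while in CD26+ NFs it had 27.5 ± 4.02 and 30.9 ± 6.69 CPM, and this difference in CM effect passed the FDR (-1.33 ± 0.27, edgeR FDR 0.00849). Stat3 fell by 0.17 and 0.26 (log2). Among 6 genes for mRNA decay and stability factors, Zc3h12a (Regnase-1), an RNase that degrades inflammatory transcripts, rose in both cell types. It went from 19.4 ± 3.43 to 47.7 ± 2.63 CPM in CD26- NFs and from 22.6 ± 1.57 to 61.6 ± 9.50 CPM in CD26+ NFs (log2FC 1.31 and 1.45, edgeR FDR 3.16e-05 and 6.15e-07). Of the 6, 1 rose and 0 fell in CD26- NFs, where 7.88% and 7.28% of all tested genes did. In CD26+ NFs 3 rose and 1 fell, where 15.2% and 13.4% did. The 1 that fell there was Khsrp, a factor that destabilizes AU-rich mRNAs (by 0.21, edgeR FDR 0.0122). Besides Zc3h12a, those that rose there were Zfp36 (0.27, edgeR FDR 0.0360) and Zfp36l2 (0.63, edgeR FDR 0.00654).

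Proteases known to trim chemokines formed the last list, of 6 tested genes, 3 higher and 1 lower with CM in CD26- NFs and 4 higher and 1 lower in CD26+ NFs. All tested genes gave 7.88% higher and 7.28% lower in CD26- NFs, and 15.2% and 13.4% in CD26+ NFs. Mmp3 rose from 94.0 ± 6.83 to 1292 ± 505 CPM in CD26- NFs and from 11.5 ± 0.396 to 1290.2 ± 890.5 CPM in CD26+ NFs. Mmp13 rose from 10.3 to 38.9 CPM and from 3.55 to 38.3 CPM. Mmp14 fell in both cell types (-0.26 and -0.38 on the log2 scale), and Mmp2 rose by 0.52 in CD26- NFs.

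For each tested member the genes with the most similar profile were sought among the 10608 genes outside the cluster whose mean over libraries reached 5 CPM. Over all 18 libraries, where the difference between control and CM libraries sets much of the likeness, Pearson's r among these genes was highest with Rab32 for Ccl2 (0.99), with Cxcl5 for Ccl7 (0.99), with Cxcl1 for Ccl11 (0.97) and with Saa3 for Ccl8 (0.98). After group means were removed, over the 12 CM libraries, the closest genes were Antxr1 for Ccl2 (0.94), Cxcl5 for Ccl7 (0.94), Tax1bp1 for Ccl11 (0.89) and Clstn2 for Ccl8 (0.96). Outside the cluster Cxcl5 therefore led for Ccl7 by either measure, and Saa3 was the second gene for Ccl8 in CM libraries (0.96). Among the members themselves Ccl2 and Ccl7 were the most alike pair, with r 0.987 over all libraries, about that of Ccl7 with Cxcl5, and 0.92 over the CM libraries. Ccl11 and Ccl8 were the least alike pair over all libraries (0.71), and Ccl2 and Ccl11 over the CM libraries (0.58). These values describe the libraries at hand, which each gene pair shares, and carry no test.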

How the data were processed

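Libraries were TruSeq stranded mRNA, sequenced single-end with 65 cycles. The authors deposited raw counts per Ensembl gene, without normalization. The submitters' processing notes name HISAT2 2.1.0, HTSeq and GRCm38, and the strand setting and annotation release were not given in the sources used here. One row without a gene, with 0 counts, was left out. Counts were filtered with filterByExpr by group, scaled by TMM and tested in 1 model of 4 groups with edgeR 4.0.16 (R 4.3.3; quasi-likelihood F test), with Benjamini-Hochberg adjustment (FDR) over all 14273 genes. The line test used the 12 CM libraries. Members, lists and tests were chosen with earlier results of these data known. From each list, up to 4 genes called in both CM effects or in their difference were named by the smallest p in CD26+ NFs. Ccl17, Ccl9, Ccl5, Ccl27a, Ccr2, Ccr3, Dpp4, Rela, Nfkbib, Tnfaip3, Zfp36 and Zfp36l2 were named after their values were seen. Tests were checked on simulated data. CM libraries of the same line deviated together (r 0.247 to 0.406 in all 6 pairs, other lines -0.315 to 0.242), so the lines pair the samples. No library was a copy of another, since replicate pairs had chi-square values of at least 3.11 times their degrees of freedom. Exon lengths came from GENCODE M21, in which 99.0% of 14260 matched tested genes have the same start and end. Alternatives were RLE and upper-quartile scaling, no filter, DESeq2 1.42.0, the line as a block, only the groups compared, the log2 limit of 2, and each library left out. The full genotype of the tumor model is not reported here.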

Additional observations from a re-analysis of the deposited data

Results flagged for a closer look

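The CM effect was larger in CD26+ than in CD26- NFs for Ccl2, by 1.83 on the log2 scale (edgeR FDR 0.00267), and for Ccl7, by 0.79 (edgeR FDR 0.0373), by the test of the difference itself. In log2 CPM over the 6 CD26+ CM libraries, the one given CM of 13-MCB-138 (replicate 18) stood below the others for Ccl2 and Ccl8. Its gap to the nearest library was 0.631 of the group's range for Ccl2 and 0.830 for Ccl8. Dixon's 95% critical value for 6 samples is 0.625. These gaps hold for the log2 scale only. Of 8 sets examined, each 1 gene in 1 group, 2 gave such a value, where chance gives about 1 in 20 for each set. Both were replicate 18, and Ccl2 and Ccl8 moved together over the CM libraries after group means were removed (r 0.79). The 2 values are therefore not independent, so their count cannot be set against that rate.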

How the results depend on the processing

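Over 496 refitted fold changes of the members, 0 changed direction, 21 lost and 3 gained the FDR. With the CM line as a replicate block, 4, 4, 2, 4 and 2 members passed in the CM effect of CD26- NFs, that of CD26+ NFs, control medium, tumor CM and the difference in CM effect, which changed no call, nor did RLE or upper-quartile scaling, no filter or DESeq2 in these 5 comparisons. With the log2 limit of 2, the counts were 1 for the CM effect in CD26- NFs, and 0 for each of control medium, tumor CM and the difference. A fit of only the groups compared gave 3 members in control medium and 3 in tumor CM. Leaving out 1 library gave 3 to 4, 4 to 4, 1 to 3, 3 to 4 and 1 to 2 members. The line test was the least stable, with 0 members in the fit reported, 4 with no filter on low counts, 1 with DESeq2 and 0 to 4 without 1 library, and the cause was not tested. Leaving out both libraries given CM of 13-MCB-138, chosen after seeing the data, gave 4, 4, 3, 4 and 2. The fit without the filter tested Ccl12 too, with an edgeR FDR of 0.0779 to 0.868. Depth limits Ccl12 and, in control libraries, Ccl8.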
